A study of Arabidopsis thaliana with 8 samples.

Results

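Transcript levels of 10 cold-response genes were compared across 8 RNA-seq libraries of unstressed *Arabidopsis thaliana* seedlings. The genes were chosen by locus, as known genes of the CBF pathway, from the 28496 genes of the deposited count table. They are *CBF1* (AT4G25490), *CBF2* (AT4G25470), *CBF3* (AT4G25480), *COR15A* (AT2G42540), *COR15B* (AT2G42530), *COR47* (AT1G20440), *ERD10* (AT1G20450), *KIN1* (AT5G15960), *KIN2* (AT5G15970) and *RD29A* (AT5G52310). The RNA came from entire seedlings, aged 6 days and kept on agar at 22 °C with 8 h of light a day, and no stress was applied. The genotypes were the wild type Col-0 (libraries M2, P2 and S2), *MYB5* OE (N2 and Q2) and *TT2* OE (O2, R2 and U2). Both overexpressors carry their MYB transcription factor gene behind the strong, broadly active CaMV 35S promoter in the Col-0 background, and which of the recovered lines was sequenced was not given in the sources used here. The library codes run in 3 rounds: M2, N2 and O2 (round 1), P2, Q2 and R2 (round 2), and S2 and U2 (round 3, with no *MYB5* OE library). The labels do not say what a round was, so anything that differed between rounds, such as the date or the hour of harvest, cannot be told apart from the round.

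CBF proteins are transcription factors of the AP2/ERF family whose genes are switched on within minutes to hours of a move to the cold. They bind the C-repeat, or dehydration-responsive element, in the promoters of cold-regulated genes and raise their transcription as the plant acclimates to frost. The COR15 proteins act in the chloroplast, where they protect membranes and enzymes. *COR47* and *ERD10* encode acidic dehydrins, *KIN1* and *KIN2* encode small hydrophilic proteins, and *RD29A* encodes a hydrophilic protein induced by cold, drought and abscisic acid. These 7 genes are called effectors here. At warm temperatures the *CBF* genes stay low and are gated by the circadian clock, with CCA1 and LHY as activators and pseudo-response regulators as repressors.

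The elements that link these genes to the CBF factors, to abscisic acid and to the clock were read from the TAIR10.1 genome. Of the 300 bases before the RefSeq transcription start of each gene, those of *COR15A*, *COR15B* and *RD29A* held the core CCGAC of the dehydration-responsive element on either strand. The same core was in 13.81% of the 26709 promoters of this length. *COR15A* held it 2 times and *RD29A* 3 times, and 1.81% of all promoters held it 2 times or more. The window of *COR15B* overlaps exon sequence annotated to *COR15A*, since the gene models are 7 bases apart, and it is not shown. *CBF2* held the G-box CACGTG, found in 7.18% of promoters, and the CAMTA element CCGCGT, found in 2.02%. Each G-box also holds the abscisic acid core ACGTG on both strands. The windows of *CBF2*, *COR15A* and *RD29A* are shown because they hold copies of these cores. Capitals mark CACGTG and CCGCGT in *CBF2*, CCGAC (or GTCGG, the same core on the other strand) and CACGTG in *COR15A*, and CCGAC in *RD29A*.
CBF2, chr4:13016236-13016535, minus strand: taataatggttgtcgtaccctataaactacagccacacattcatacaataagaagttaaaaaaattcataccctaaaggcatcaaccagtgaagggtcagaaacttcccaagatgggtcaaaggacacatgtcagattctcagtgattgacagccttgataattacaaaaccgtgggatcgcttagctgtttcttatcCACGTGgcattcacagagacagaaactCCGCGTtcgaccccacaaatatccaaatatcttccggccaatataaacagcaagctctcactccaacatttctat
COR15A, chr2:17712331-17712630, minus strand: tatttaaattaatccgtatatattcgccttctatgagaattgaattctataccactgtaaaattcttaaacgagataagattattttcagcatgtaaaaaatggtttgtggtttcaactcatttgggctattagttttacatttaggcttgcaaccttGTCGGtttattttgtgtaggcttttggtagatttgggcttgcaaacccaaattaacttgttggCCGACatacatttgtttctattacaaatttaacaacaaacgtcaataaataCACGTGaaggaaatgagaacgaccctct
RD29A, chr5:21240417-21240716, plus strand: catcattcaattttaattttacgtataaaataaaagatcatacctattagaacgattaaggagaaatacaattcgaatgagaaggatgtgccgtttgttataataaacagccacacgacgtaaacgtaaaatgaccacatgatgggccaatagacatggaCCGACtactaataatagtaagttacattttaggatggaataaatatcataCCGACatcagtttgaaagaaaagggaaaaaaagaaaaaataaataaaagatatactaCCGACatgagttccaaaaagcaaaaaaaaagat

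Over the 1000 bases before the start codon, which take in the 5′ leader, CCGAC was present in all 7 effectors and in 0 of the 3 *CBF* genes, against 39.32% of 26709 genes. The evening element AAAATATCT, a short sequence bound by MYB-type clock proteins, was present in 7 of the 10 genes, against 7.32% of all genes. These were the 3 *CBF* genes, *COR15A*, *COR15B*, *KIN1* and *KIN2*. The abscisic acid core ACGTG was present in all 10 genes (54.4% of all genes), the G-box in 7 (15.3%), the CAMTA element in *CBF2*, *COR47* and *ERD10* (6.35%) and the site II core TGGGC in 4 (48.98%). All searches took both strands. These matches are descriptions of the sequence, and no binding was measured. The 9 evening elements are shown with 10 bases on either side, because 7 of the 10 genes hold this sequence. Capitals mark AAAATATCT or, on the other strand, AGATATTTT. Those of *CBF3*, *COR15A* and *COR15B* and the nearer one of *KIN2* fall in exon sequence of the gene itself. The farther element of *KIN2* and that of *KIN1* are identical over all 29 bases.
CBF1, 927 bases before the start codon, chr4:13023471-13023499, minus strand: gtaacgagagAGATATTTTtgtcagcgaa
CBF1, 830 bases before the start codon, chr4:13023374-13023402, minus strand: attgagattgAGATATTTTgtgggaatta
CBF2, 543 bases before the start codon, chr4:13016611-13016639, minus strand: agagcatttgAAAATATCTcgtttcacgg
CBF3, 190 bases before the start codon, chr4:13019175-13019203, minus strand: ttttgcctctAAAATATCTtccgccatta
COR15A, 173 bases before the start codon, chr2:17712121-17712149, minus strand: taatgtgcaaAAAATATCTtactcttaat
COR15B, 160 bases before the start codon, chr2:17710015-17710043, minus strand: gcaatgcgcaAAAATATCTagcactcaca
KIN1, 881 bases before the start codon, chr5:5209101-5209129, plus strand: aaactcaaatAAAATATCTaggtataatt
KIN2, 903 bases before the start codon, chr5:5211053-5211081, plus strand: aaactcaaatAAAATATCTaggtataatt
KIN2, 14 bases before the start codon, chr5:5211942-5211970, plus strand: ttacaagaaaAAAATATCTgaaaaatgtc

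Total counts ran from 35496351 to 48428855 per library, and no pair of libraries agreed within sampling noise. *TT2* stood at 466 to 516 CPM (reads scaled to a common library size and composition) in *TT2* OE and at no more than 0.316 CPM elsewhere. *MYB5* stood at 252 and 281 CPM in *MYB5* OE and at no more than 0.150 CPM elsewhere, as the labels give. Markers of leaf (7 genes), root (8) and seed (6) were each detected. The summed leaf markers were at 48680 to 51800 CPM in round 1, 54050 to 61910 in round 2 and 52500 to 55590 in round 3. The summed root markers were at 209 to 217, 221 to 274 and 267 to 351 CPM in the 3 rounds, and the seed markers at 2.13 to 2.83, 2.14 to 3.84 and 3.96 to 4.23 CPM. Much of the root sum was *PHO1*, with means of 113, 149 and 217 CPM. By mean CPM, *SHR* and *COBL9* were also higher in round 3 than in round 1. *PIN2*, *CASP1*, *CYP86A1*, *EXPA7* and *WOX5* were lower there, so the sum does not stand for the root markers as a set. In round 2 against round 1, 5 leaf markers were called higher and 0 lower, among them *LHCB2.1*, *RCA*, *RBCS1A* and *CA1* (log2 ratios 0.48 to 0.69), and 3 root markers higher (*COBL9*, *PHO1*, *SHR*) and 2 lower (*PIN2* among them). Against round 1, round 3 had 2 leaf markers called higher and 1 lower, and 2 root markers higher and 1 lower, and *EM6* was called higher of the 3 seed markers that passed the filter. Of all genes tested, 54.4% were called in round 2 against round 1 and 40.8% in round 3 against round 1. In whole seedlings, fewer cells of a type and less RNA per cell cannot be told apart, and the part of these markers in the results below was not tested.

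All 3 *CBF* genes were low in round 2, and *CBF2* was highest in round 3. *CBF1* had 15, 34 and 20 reads in M2, N2 and O2, 0 reads in each of P2, Q2 and R2, and 7 and 5 reads in S2 and U2. These are 0.395, 0.851 and 0.430 CPM in round 1 and 0.150 and 0.135 CPM in round 3. Every library of round 1 was above every library of the other rounds, but *CBF1* could pass the filter used below only through round 1. This separation is thus a description and no test. *CBF2* had 63, 79 and 72 reads in round 1 (1.66, 1.98 and 1.55 CPM), 21, 16 and 19 in round 2 (0.436, 0.371 and 0.503 CPM), and 226 and 157 in round 3 (4.83 and 4.25 CPM). The 3 rounds of *CBF2* did not overlap, and their order was round 2, round 1, round 3. *CBF3* had 83, 60 and 81 reads in round 1 (2.18, 1.5 and 1.74 CPM), 15, 0 and 8 in round 2 (0.312, 0 and 0.212 CPM), and 58 and 53 in round 3 (1.24 and 1.44 CPM). Its libraries of round 3 lay below those of round 1, though these rounds were not called apart in the test below. Those of round 2 were lower still.

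**Figure D1:**
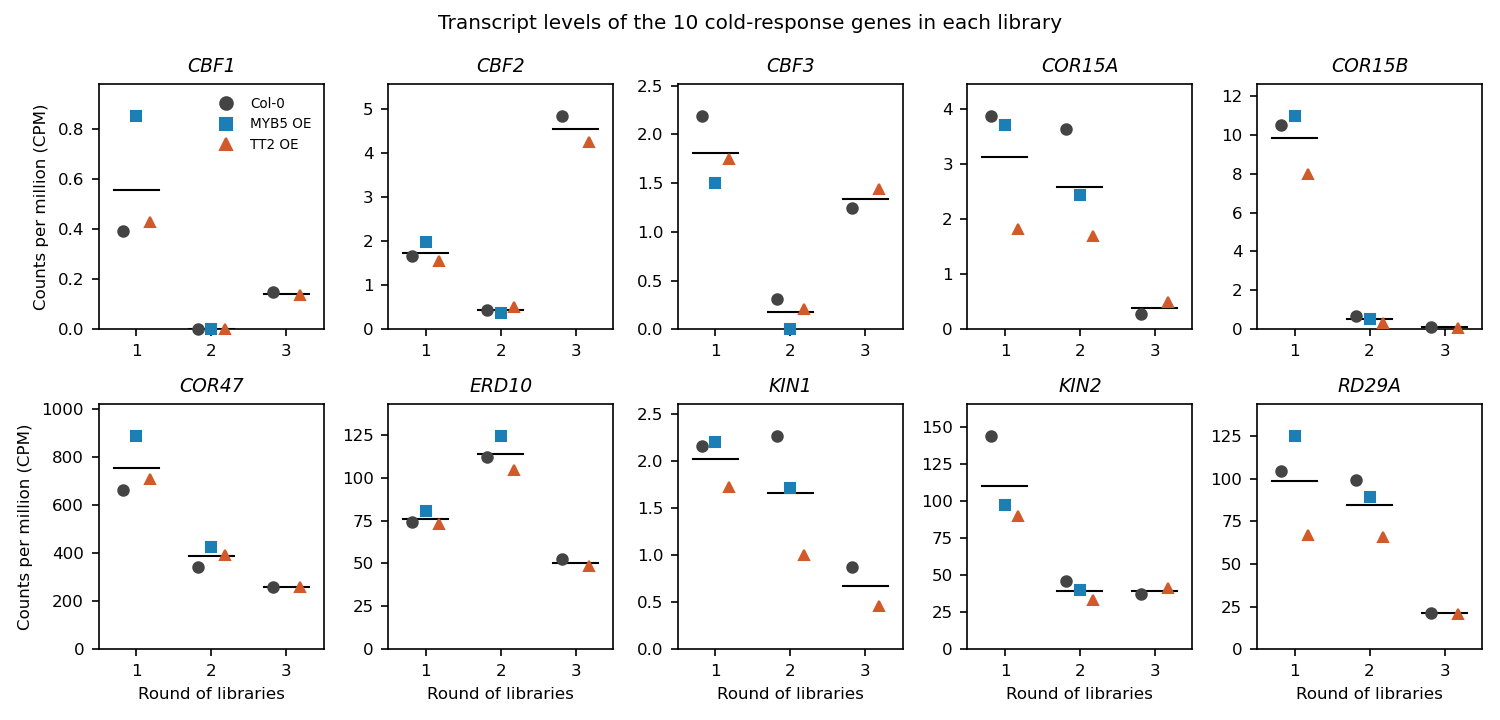
Transcript level in CPM (y axis, from 0, a scale of its own in each panel) of the 10 genes in each library, by round of libraries (x axis); symbols give the genotype and the bar is the mean of the round. *CBF2* peaked at 4.83 and 4.25 CPM in round 3, where *RD29A* was at 21.5 and 20.5 CPM against 66.0 to 125 CPM in the other rounds.

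The rounds were compared with edgeR's quasi-likelihood test, with genotype in the model and all 20382 genes that passed the filter on low counts, and a gene was called at an adjusted p under 0.05. All 10 genes passed this filter, but *CBF1* reached its limit of 0.237 CPM in round 1 only, so it could pass only by being high there. The study describes its replicates as biologically independent, but the labels do not tie libraries to separate cultures, so a p-value measures only the spread between these libraries. The rounds are also the parts that clustering of all genes in these libraries had given, so that here a p gives the size of a difference against the residual spread and no independent test of the rounds. In round 2 against round 1, 54.4% of all genes tested were called, 26.7% higher and 27.6% lower. *CBF1*, which had to be high in round 1 to be tested, is given no p against that round. Of the other 9 genes, 6 were called, 1 higher and 5 lower, and their median log2 ratio was -0.96 against -0.03 over all genes tested. *CBF2* and *CBF3* were among the 5. *CBF2* fell by 1.98 on the log2 scale (SE 0.255, adjusted p = 3.68e-05) and *CBF3* fell by 3.41 (SE 0.479, adjusted p = 7.51e-05). *CBF1* had 0 reads in round 2 against 69 in round 1, which is 23.9-fold lower with the 0 set at a floor of 3 reads over the group.

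In round 3 against round 1, 40.8% of all genes tested were called, and *CBF2* was the 1 gene of the 10 that rose, by a log2 ratio of 1.43 (SE 0.243, adjusted p = 0.000503). *CBF3* was not called (log2 ratio -0.69, SE 0.442, adjusted p = 0.235), and *CBF1* had a log2 ratio of -1.51 (SE 0.647). In round 3 against round 2, 37.4% of all genes tested were called, 18.5% higher and 19% lower, and all 3 *CBF* genes were higher. The log2 ratio was 3.41 for *CBF2* (SE 0.269, adjusted p = 2.54e-06) and 2.71 for *CBF3* (SE 0.535, adjusted p = 0.00183). *CBF1* had 12 against 0 reads (adjusted p = 0.00787), which is 6.17-fold higher with the 0 set at 3 reads and the 12 taken as exact. From 1 library to 1, the lower 95% counting limit of its log2 ratio was 0.57 for S2 to P2 and -0.09 for U2 to R2. The 3 comparisons share their libraries and are not independent of each other. Without library P2, the ratio of *CBF3* moved to -4.07 for round 2 against round 1 and to 3.40 for round 3 against round 2.

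*COR15B*, a nuclear gene whose protein acts in the chloroplast, showed the widest differences of the effectors from round 1. It had 400, 437 and 370 reads in round 1 (10.5, 10.9 and 7.96 CPM), 33, 23 and 13 in round 2 (0.686, 0.533 and 0.344 CPM), and 5 and 3 in round 3 (0.107 and 0.0813 CPM). No rounds overlapped. It fell by 4.23 on the log2 scale in round 2 against round 1 (SE 0.193, adjusted p = 4.55e-09). In round 3 against round 1 the pooled CPM was 101.5-fold lower, and the fitted log2 ratio was -6.61 (SE 0.309, adjusted p = 8.05e-09). In round 3 against round 2, with 8 against 69 reads, the log2 ratio was -2.38 (SE 0.418, adjusted p = 0.000853).

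Its paralog *COR15A* did not follow it between rounds 1 and 2. *COR15A* had 147, 148 and 85 reads in round 1 (3.87, 3.71 and 1.83 CPM), 175, 105 and 64 in round 2 (3.64, 2.43 and 1.69 CPM), and 13 and 18 in round 3 (0.278 and 0.488 CPM). Rounds 1 and 2 overlapped and the ratio between them was not called (log2 ratio -0.26, SE 0.260, adjusted p = 0.410). Round 3 lay below all others, with a log2 ratio of -2.95 against round 1 (SE 0.403, adjusted p = 9.33e-05) and of -2.69 against round 2 (SE 0.403, adjusted p = 0.000282). These ratios rest on 31 reads in round 3. Without library S2 they were -1.98 and -1.71, and without U2 -3.88 and -3.61, and all 4 were called.

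*RD29A*, which holds 3 copies of the CCGAC core in the window shown above, was, like *COR15A*, called lower in round 3 against both other rounds and not called between those. It was at 105, 125 and 67.2 CPM in round 1, at 99.2, 89.6 and 66.0 CPM in round 2, and at 21.5 and 20.5 CPM in round 3. Round 2 was not called against round 1 (log2 ratio -0.20, SE 0.121, adjusted p = 0.191), although leaving out library O2 brought it to -0.33 with an adjusted p of 0.0495. Round 3 was lower than round 1 by a log2 ratio of -2.07 (SE 0.154, adjusted p = 5.10e-07) and than round 2 by -1.87 (SE 0.152, adjusted p = 3.01e-06).

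The dehydrin genes *COR47* and *ERD10* lie 1029 bases apart and moved in opposite directions in round 2. *COR47* was at 661, 885 and 709 CPM in round 1, at 341, 425 and 390 CPM in round 2, and at 256 and 260 CPM in round 3. Its rounds did not overlap, and it fell by 0.96 on the log2 scale in round 2 against round 1 (SE 0.089, adjusted p = 2.38e-06) and by 1.43 in round 3 against round 1 (SE 0.108, adjusted p = 5.53e-07). *ERD10* was at 74.0, 80.5 and 73.3 CPM in round 1, at 112, 124 and 105 CPM in round 2, and at 52.4 and 48.4 CPM in round 3. It was the 1 gene of the 10 that rose in round 2 against round 1 (log2 ratio 0.58, SE 0.079, adjusted p = 5.71e-05), and it fell by 0.54 in round 3 against round 1 (SE 0.094, adjusted p = 0.000626). In round 3 against round 2, *ERD10* fell by 1.12 (SE 0.095, adjusted p = 4.13e-06) and *COR47* by 0.48 (SE 0.104, adjusted p = 0.00367). The latter had an adjusted p of 0.0506 without library U2.

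*KIN2* was at 144, 97.5 and 89.9 CPM in round 1, at 46.0, 39.7 and 33.0 CPM in round 2, and at 37.0 and 41.2 CPM in round 3. Rounds 2 and 3 overlapped (log2 ratio -0.03, SE 0.159, adjusted p = 0.914), and both were below round 1, by 1.47 (SE 0.135, adjusted p = 2.17e-06) and 1.49 (SE 0.162, adjusted p = 1.38e-05) on the log2 scale. *KIN1*, its neighbour at 892 bases, had 82, 88 and 80 reads in round 1 (2.16, 2.20 and 1.72 CPM), 109, 74 and 38 in round 2 (2.27, 1.71 and 1.01 CPM), and 41 and 17 in round 3 (0.876 and 0.461 CPM). Rounds 1 and 2 overlapped and were not called apart (log2 ratio -0.33, SE 0.235, adjusted p = 0.25). Round 3 was lower, by 1.59 against round 1 (SE 0.311, adjusted p = 0.00138) and by 1.26 against round 2 (SE 0.312, adjusted p = 0.00744), the second with an adjusted p of 0.0657 without library P2.

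All 7 effectors were thus called lower in round 3 than in round 1, against 20% of all genes tested, and 6 of them by at least 2-fold, against 6.72%. In round 3 against round 2, 6 of the 7 were called lower, *KIN2* being the exception. In round 2 against round 1 they split: *COR15B*, *COR47* and *KIN2* fell, *ERD10* rose, and *COR15A*, *KIN1* and *RD29A* were not called. The median log2 ratio of the effectors was -1.59 for round 3 against round 1, -1.26 for round 3 against round 2 and -0.33 for round 2 against round 1. The medians over all genes tested were 0.01, 0.02 and -0.03. With scaling to total counts alone, the last 2 medians were 0.14 and -0.11, and the share of called genes that were higher went from 49.3% to 65.1% in round 3 against round 2. Of the called ratios of the 10 genes, 0 changed sign under the alternatives tried. In terms of libraries, *CBF1*, which passed the filter only through round 1, is left out against that round. Of the other 9 genes, only *COR15A*, *KIN1* and *RD29A* overlapped in CPM between rounds 1 and 2, and none did between rounds 1 and 3. Between rounds 2 and 3, only *KIN2* of the 10 overlapped. In round 2 against round 1, round 3 against round 1 and round 3 against round 2, 61.0%, 62.5% and 58.1% of all genes tested did not overlap.

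**Figure D2:**
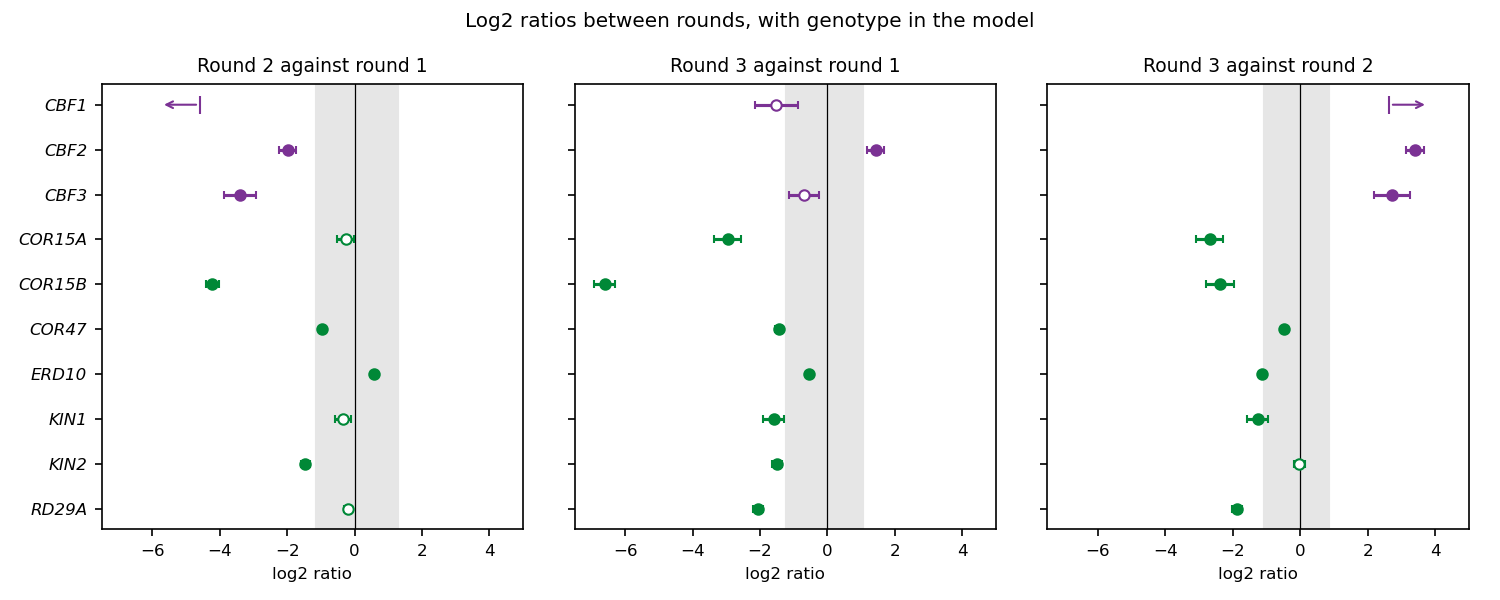
Log2 ratios (x axis) of the 10 genes for the 3 comparisons of rounds, with genotype in the model; bars are standard errors, filled points were called at an adjusted p under 0.05 (*CBF1* is given no test against round 1), *CBF* genes are purple and effectors green. The grey band holds the 5th to 95th percentile of all genes tested (-1.14 to 1.29, -1.24 to 1.07 and -1.08 to 0.85). Arrows start at the ratios of *CBF1* with 0 reads set at 3, which are 23.9-fold lower and 6.17-fold higher.

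Since neighbouring paralogs changed unequally, their ratio was taken within each library, per length of the RefSeq exons, which may differ from the gene models that the authors counted on. *COR15A* to *COR15B* was 0.368, 0.339 and 0.230 in M2, N2 and O2 and 5.30, 4.57 and 4.92 in P2, Q2 and R2. *COR15B* was thus the more abundant copy in round 1 and *COR15A* in round 2. In round 3 the ratio was 2.60 and 6.00, from 13 to 5 and 18 to 3 reads. *COR47* to *ERD10* was 6.25 to 7.70 in round 1, 2.13 to 2.61 in round 2 and 3.42 to 3.76 in round 3, with no overlap. *KIN2* to *KIN1* was 48.9 to 73.8, 22.5 to 36.2 and 46.7 to 98.8, and *CBF2* to *CBF3* was 1.07 to 1.86 in round 1 and 4.18 to 5.50 in round 3. The coding sequences of *KIN1* and *KIN2* are 95% identical, those of the 3 *CBF* genes 87.3% to 87.5%, those of *COR15A* and *COR15B* 83.8%, and those of *COR47* and *ERD10* 82.3%. How reads that fitted several places were counted was not given in the sources used here, so the split within a pair is uncertain to that extent. At most 3.1% of the 50-base windows of one spliced transcript, untranslated ends included, recur exactly in that of its partner.

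**Figure D3:**
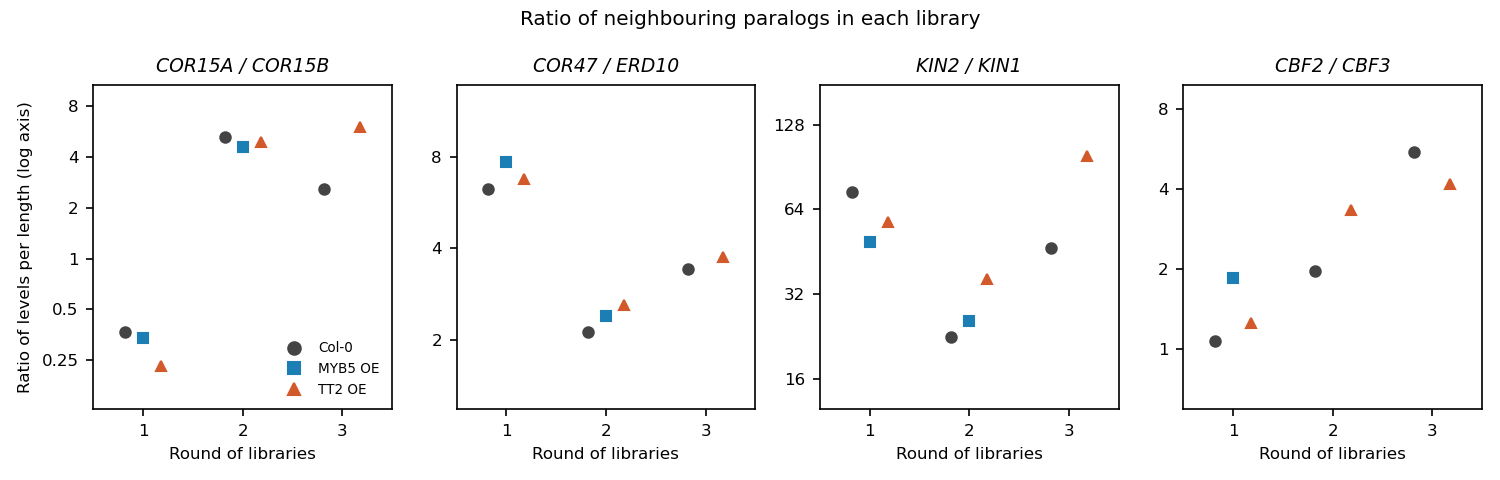
Ratio of the levels per length of neighbouring paralogs (y axis, log scale) in each library, by round (x axis), with symbols for the genotype; the ratio of *CBF2* to *CBF3* has no value in Q2, where *CBF3* had 0 reads. *COR15A* to *COR15B* lies between 0.230 and 0.368 in round 1 and between 4.57 and 5.30 in round 2.

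Levels were ordered between genes in TPM, which divide the reads by gene length before scaling. *COR47* was the most abundant of the 10 in every round, with a mean of 538.5 TPM in round 1, 264.5 in round 2 and 198 in round 3, and made up 45.8% to 61.2% of their sum in a library. That sum was 858 to 1018 TPM in round 1, 481 to 541 in round 2 and 369 to 377 in round 3. In round 1, *KIN2* (245 TPM) came next, then *ERD10* (77.8 TPM) and *RD29A* (61.7 TPM), whose libraries overlapped. *COR15B* followed at 10.3 TPM, *KIN1*, *COR15A* and *CBF2* at 4.07, 3.28 and 2.91 TPM with overlap between neighbours, and *CBF3* and *CBF1* at 2.17 and 0.760 TPM. In round 2, *ERD10* (112 TPM) and *KIN2* (84.5 TPM) overlapped, and *COR15B*, at 0.528 TPM, stood among the *CBF* genes. In round 3 *CBF2* came right after *RD29A*, at 8.23 TPM, and above *CBF3* (1.71 TPM), *KIN1* (1.45 TPM) and *COR15A* (0.429 TPM). *COR15B* was last there, at 0.106 TPM. Thus *CBF2* went from rank 8 in round 1 to rank 5 in round 3, and *COR15B* from rank 5 to rank 10.

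Other genes of the cold pathway were taken from fixed lists and given beside the 10, with the same fit. All 10 clock genes on the list of *CBF* regulators were called in round 2 against round 1, 5 higher and 5 lower. Of all genes tested, 54.4% were called in that comparison. *LHY*, a morning MYB factor, was at 1.31 ± 0.320 CPM (SD, n = 3) in round 1, 326 ± 14.7 CPM (SD, n = 3) in round 2 and 1020 ± 51.3 CPM (SD, n = 2) in round 3. *CCA1*, its partner, went from 4.96 to 230 and 686 CPM, and *RVE8*, a related activator, from 1.68 to 51.8 and 156 CPM. *TOC1*, the evening pseudo-response regulator, was at 230 ± 23.5 CPM (SD, n = 3) in round 1, 19.8 ± 1.51 (SD, n = 3) in round 2 and 22.5 ± 2.04 (SD, n = 2) in round 3. *LHY*, *CCA1* and *RVE8* were lowest in round 1 and highest in round 3. Of the other pseudo-response regulators, *PRR5* was at 159, 3.71 and 4.59 CPM in rounds 1, 2 and 3. *PRR7* was at 353, 169 and 111 CPM and *PRR9* at 6.43, 43.1 and 131 CPM. All 3 *CBF* genes were lowest in round 2. The part of the clock in the levels of the 10 genes was not tested, since the rounds are the only contrast in it.

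Of 14 other regulators that act on the *CBF* genes, 4 were called higher and 2 lower in round 2 against round 1, and 7 higher and 4 lower in round 3 against round 1. Of all genes tested, 54.4% and 40.8% were called in these comparisons. The bHLH factors *PIF7* and *PIF4*, which repress *CBF* genes in long days, were highest in round 2, at 72.6 and 252 CPM against 27.3 and 143 CPM in round 1 and 39.8 and 110 CPM in round 3. The seedlings here had 8 h of light a day. The log2 ratio of round 2 to round 1 was 1.41 for *PIF7* (SE 0.110, adjusted p = 4.91e-07) and 0.81 for *PIF4* (SE 0.102, adjusted p = 2.96e-05). *OST1*, the kinase that stabilises ICE1, rose by 0.87 (adjusted p = 1.39e-05), and *BZR1*, the brassinosteroid factor, by 0.68 (adjusted p = 4.66e-05). Others on the list peaked in other rounds. *PIF3* was at 16.3, 17.8 and 44.8 CPM in rounds 1, 2 and 3, *EIN3* at 205, 181 and 256 CPM, and *SOC1* at 14.3, 7.89 and 4.54 CPM. The part of these regulators in the levels of the 10 genes was not tested. Of 16 other early cold transcription factors, 13 passed the filter, and 2 were called higher and 5 lower in round 2 against round 1. *RAV1* fell from 83.3 to 23.5 and 14.1 CPM over rounds 1, 2 and 3, *MYB73* from 83.4 to 36.2 and 28.3 CPM, and *CZF1*, a zinc finger gene, from 37.8 to 28.8 CPM in both. *HSFC1*, a class C heat shock factor induced early in the cold, was at 7.44, 11.9 and 36.1 CPM.

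Among 20 other cold-regulated effector genes, 9 were called higher and 8 lower in round 2 against round 1, and 9 higher and 9 lower in round 3 against round 1. Of all genes tested, 54.4% and 40.8% were called in these comparisons. The median log2 ratios of the 20 effectors were 0.14 and 0.06. Several of those that fell did so by more than the 10 genes' median. *COR28* (AT4G33980) and *COR27*, whose products also act in the clock, were at 27.6 and 39.5 CPM in round 1, 0.339 and 2.96 CPM in round 2, and 0.376 and 12.5 CPM in round 3. *RCI2A*, a small membrane protein gene, went from 295 to 31.3 and 34.1 CPM, and *COR413IM2*, a chloroplast envelope protein gene, from 51.6 to 10.7 and 10.9 CPM. Unlike *CBF2*, none of these 4 was above its level of round 1 in round 3. Of 14 drought and abscisic acid response genes, 8 were called higher and 3 lower in round 2 against round 1, and 9 higher and 1 lower in round 3 against round 1. Of all genes tested, 26.7% were called higher and 27.6% lower in the first comparison, and 20% lower in the second. *ABF3*, a bZIP factor of the abscisic acid response, was at 28.2, 70.9 and 151 CPM in the 3 rounds. *P5CS1*, of proline synthesis, was at 42.9, 74.2 and 70.2 CPM, and *RD22* at 124, 255 and 221 CPM. *DREB2A*, the drought relative of the *CBF* genes, was at 23.4, 8.79 and 9.59 CPM and fell in both rounds (log2 ratios -1.42 and -1.35, adjusted p = 4.40e-06 and 4.53e-05).

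**Figure D4:**
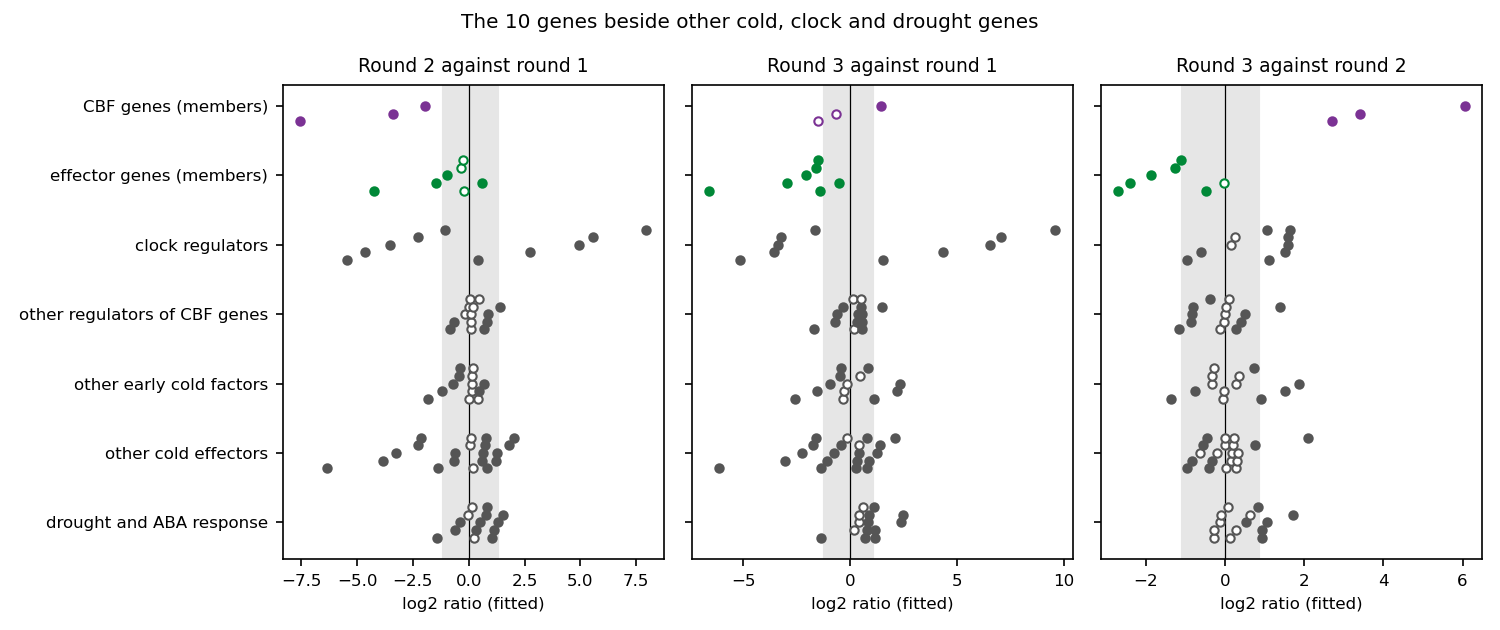
Fitted log2 ratios (x axis) of the 10 genes, the *CBF* genes in purple and the effectors in green, and of the other listed genes (grey), 1 point a gene, for the 3 comparisons of rounds; filled points were called and the grey band holds the 5th to 95th percentile of all genes tested. The 7 effectors lie below 0 in round 3 against round 1, with a median of -1.59, and the 20 other cold effectors spread over both sides, with a median of 0.06; the ratios of *CBF1* with 0 reads in round 2 depend on the fit, and its ratios to round 1 are given with no test, whatever their fill.

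The genes whose pattern over the 8 libraries was most like the mean of the 3 *CBF* genes were sought among 18187 genes with at least 1 CPM on average, by the root mean square distance of centred log2 CPM. The closest was *JMJD5* (AT3G20810, distance 0.392), which encodes a jumonji-domain protein tied to the clock, at 14.5, 2.79 and 12.6 CPM in rounds 1, 2 and 3. *MEF7* (0.499), AT4G29050 (0.544), *AIF1* (0.547) and AT5G20030 (0.550) followed. The 3 *CBF* genes themselves lay 0.580 to 0.690 from their mean. For the mean of the 7 effectors, AT5G19540 was the closest (distance 0.134), at 144, 72.3 and 30.5 CPM. *SHA1* (0.185), *AGP41* (0.194), *BASS2* (0.208), a plastid pyruvate carrier, and *LSF2* (0.217), a phosphatase of starch breakdown, were next. Single effectors lay between 0.368 and 1.67 from that mean.

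Genotypes were compared within rounds. In *TT2* OE against Col-0, edgeR called 1.41% of all genes tested and 0 of the 10. At an unadjusted p under 0.05, 0 of the 10 were higher and 5 lower, against 12.8% of all genes in either direction. DESeq2 called 0 of the 10 and 2.21% of all genes, and the likelihood ratio test of edgeR called *RD29A* and 3.75% of all genes. *RD29A* was at 67.2 CPM in *TT2* OE and 105 CPM in Col-0 of round 1, at 66.0 and 99.2 CPM in round 2, and at 20.5 and 21.5 CPM in round 3. *TT2* OE was the lower in each round, by far less in round 3. The log2 ratio was -0.44 (SE 0.123, adjusted p = 0.121). The other 4 were *KIN1* (log2 ratio -0.77, SE 0.253, adjusted p = 0.200), *COR15A* (-0.79, SE 0.298, adjusted p = 0.278), *KIN2* (-0.34, SE 0.134, adjusted p = 0.299) and *COR15B* (-0.54, SE 0.214, adjusted p = 0.312). *COR15B*, *ERD10*, *KIN1* and *RD29A* were lower in *TT2* OE in every round, as were 17.3% of all genes, and *COR47* was higher in every round, as were 17.6%. Several of these signs lay within counting error. The 95% counting interval of the log2 ratio was -0.09 to 0.06 for *ERD10* in round 1 and -0.02 to 0.06 for *COR47* in round 3. *COR15B* had 3 against 5 reads in round 3. *COR15A* and *KIN2* were lower in *TT2* OE in rounds 1 and 2 and higher in round 3.

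Those values depended on round 3. Without library S2, 3 of the 10 were called lower in *TT2* OE, namely *COR15A* (adjusted p = 0.0488), *KIN2* (0.0236) and *RD29A* (0.0283). Without U2, *KIN2* (0.0238) and *RD29A* (0.0288) were called. Of all genes, these fits called 1.26% without S2 and 1.25% without U2. Leaving out any other library gave 0 calls. Round 3 then holds 1 library, which the model fits exactly, so these values rest on rounds 1 and 2. The log2 ratios of the 3 *CBF* genes in *TT2* OE were 0.03 (SE 0.602), -0.09 (SE 0.225) and -0.17 (SE 0.411). The errors of *CBF1* and *CBF3* were larger than that of *RD29A*, so that only wide differences would be detectable in them at this depth.

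*MYB5* OE has libraries in rounds 1 and 2 only, while the fit holds all 8 libraries. In *MYB5* OE against Col-0, 0.167% of all genes tested and 0 of the 10 were called. DESeq2 and the likelihood ratio test also called 0 of the 10, and 0.721% and 1.46% of all genes. At an unadjusted p under 0.05 only *COR47* stood out of the 10, against 8.26% of all genes. *COR47* was at 885 CPM in *MYB5* OE and 661 CPM in Col-0 of round 1, and at 425 and 341 CPM in round 2, with a log2 ratio of 0.35 (SE 0.104, adjusted p = 0.297). *RD29A* was higher in *MYB5* OE in round 1 and lower in round 2, and *KIN2* was lower in both. Of *CBF1*, N2 held 34 reads against 15 in the Col-0 library M2, a log2 ratio of 1.11 within round 1 with a counting interval from 0.19 to 2.09. Neither genotype had a *CBF1* read in round 2. In *TT2* OE against *MYB5* OE, 0.172% of all genes and 0 of the 10 were called by edgeR. At an unadjusted p under 0.05, 3 of the 10 were lower and 0 higher, against 3.91% of all genes. *RD29A* had the smallest p (log2 ratio -0.59, SE 0.143, adjusted p = 0.351), and both DESeq2 (adjusted p = 0.0414) and the likelihood ratio test (0.0304) called it, as did edgeR's quasi-likelihood test without S2 or U2. Those 4 fits called 0.32%, 0.545%, 0.245% and 0.24% of all genes.

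**Figure D5:**
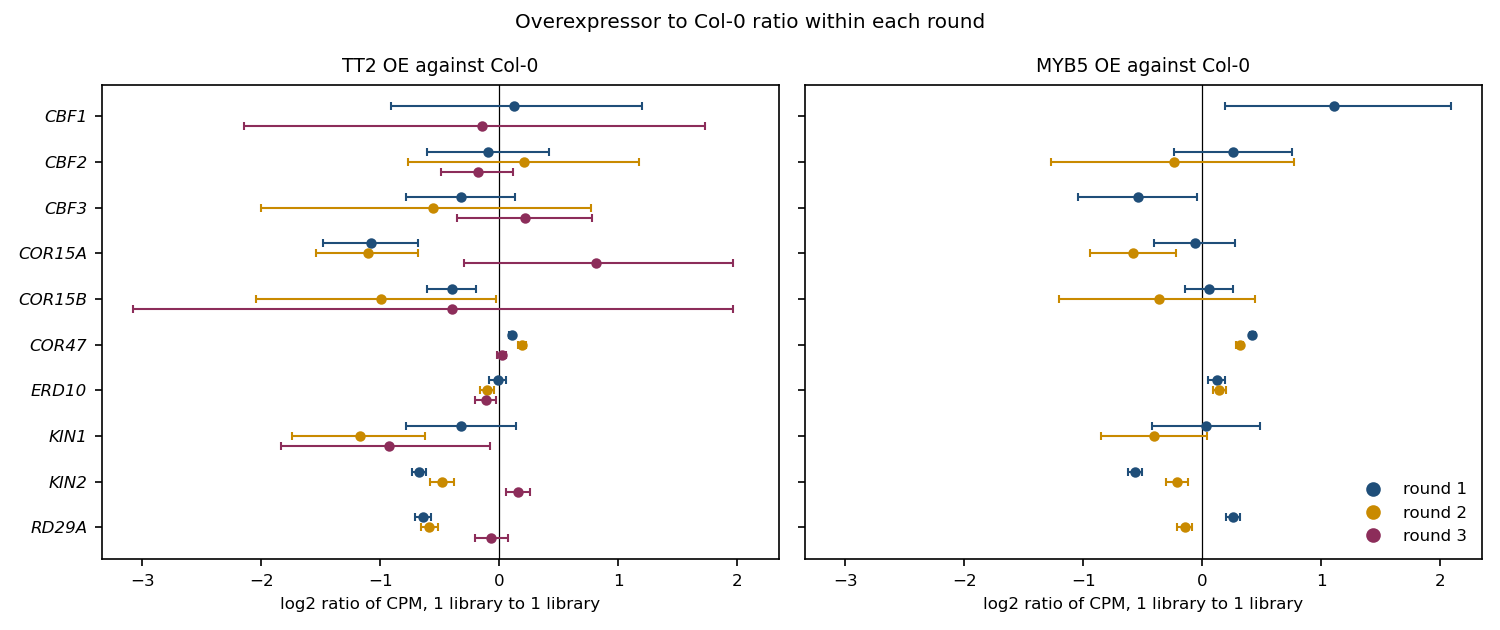
Log2 ratio of CPM (x axis) of 1 overexpressor library to the Col-0 library of the same round, for *TT2* OE (left) and *MYB5* OE (right); bars are 95% intervals that cover counting error only, and genes with 0 reads in either library have no point. *RD29A* in *TT2* OE lies well below 0 in rounds 1 and 2 and near 0 in round 3, where the CPM were 20.5 and 21.5.

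Of the listed regulators, clock genes, early factors, other cold effectors and drought genes, 1 was called between genotypes. *CAMTA1*, a calmodulin-binding activator of *CBF2*, had a log2 ratio to Col-0 of -0.55 in *TT2* OE (SE 0.087, adjusted p = 0.0102). Its ratio was -0.53 in *MYB5* OE (SE 0.103, adjusted p = 0.0750, not called), and -0.02 between the overexpressors (SE 0.102). It lies on chromosome 5 between AT5G06000 and AT5G10000, bounds set in earlier work on these data, a stretch with 312 tested genes. In *TT2* OE 242 of them were below 0 and 63 were called lower, with a median log2 ratio of -0.31, and in *MYB5* OE 253 were below 0 and 7 were called lower, with a median of -0.32. The medians over all genes tested were 0.00 and 0.00, and 145 and 19 of all 20382 genes tested were called lower. Since the bounds came from these same data, these values describe the stretch and do not test it. The bearing of this stretch on *CAMTA1* was not tested.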

How the data were processed

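RNA of whole seedlings was sequenced by the authors as paired reads from NEBNext Ultra Directional libraries on a NextSeq 500, and the deposited whole-number counts of reads per gene were made by the authors with CLC Genomics Workbench 10 on TAIR10. The table also holds 28 columns of per-sample values that were not used: 24 of normalized values of the 8 libraries and 4 of a library that matches no sample. Depth per library is given with the results; intervals and the floor of 3 reads cover the error of counting alone, because reads counted with no molecular identifier can be copies of 1 molecule.

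Samples were grouped by the genotype in their labels and by round, the run of library codes. Replicate numbers were given in accession order and pair nothing. Counts were filtered with edgeR's filterByExpr (20382 of 28496 genes kept), scaled by TMM and fitted with edgeR 4.0.16 in R 4.3.3 (quasi-likelihood test, terms for round and genotype, 3 residual degrees of freedom, common dispersion 0.0107, Benjamini-Hochberg adjustment over all genes tested). The 10 genes, the lists, the rounds and the tests were chosen with earlier results of these data known. Named genes were the 10, up to 4 genes of each list with the smallest p for round 2 against round 1, *TT2*, *MYB5* and the 5 nearest profiles of each kind. *CAMTA1*, *PIF3*, *EIN3*, *SOC1*, *PRR5*, *PRR7*, *PRR9*, the further root markers and the markers by sum came after the values were seen. *COR28* is named from the list, as the RefSeq table used here pairs its locus with no symbol. Alternatives were relative log expression factors, total counts, the likelihood ratio test, DESeq2 1.42.0, unfiltered counts, single-term models, 2 rounds alone and leaving out each library.

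Lengths, positions and sequences come from RefSeq TAIR10.1 (28001 of 28496 genes matched), whose nuclear sequence is that of TAIR10. Levels per length (TPM) divide by the union of RefSeq exons. Searches used Python 3.11.15 and Biopython 1.88, and figures matplotlib 3.10.9. No reads were analysed here.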

Additional observations from a re-analysis of the deposited data

Results flagged for a closer look

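*KIN2* and *RD29A* moved in opposite directions in single rounds or genotypes. *KIN2* in *TT2* OE against Col-0 had log2 ratios of -0.68 in round 1, -0.48 in round 2 and 0.15 in round 3, each from 1 library against 1. *KIN2* in round 3 against round 2 had a log2 ratio of 0.32 in *TT2* OE and of -0.31 in Col-0. *RD29A* in *MYB5* OE against Col-0 had a log2 ratio of 0.26 in round 1 and of -0.15 in round 2. In each case the counting intervals lie off 0 on opposite sides. With 1 library a genotype in a round, there is no replicate spread to set these against, and the differences were not tested.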

How the results depend on the processing

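Of 869 results for the 10 genes under an alternative, 854 kept their side of the threshold, 2 lost a call and 13 gained one, and 0 called ratios reversed. Another 29 changed sign without a call in either fit. The 2 lost and the gained calls in *RD29A*, *COR15A* and *KIN2* are given above; the others were of *CBF1* in round 3 against round 1, under the likelihood ratio test and with round alone in the model, where it is given no test. Against round 1, where *CBF1* is given no test, 6 of the other 9 genes were called in round 2 and 8 in round 3. Of all genes tested, 54.4% and 40.8% were called there. In round 3 against round 2 the members called were 9 of 10, beside 37.4% of all genes tested. For *TT2* OE against Col-0 they were 1 by the likelihood ratio test and 0 to 3 with a library left out. For *TT2* OE against *MYB5* OE they were 1 by DESeq2, 1 by the likelihood ratio test and 0 to 1 with a library left out.

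Over all genes, calls in round 3 against round 2 were 7630 and ran from 4986 to 7415 with a library left out, fewest without R2. For *TT2* OE against Col-0, *MYB5* OE against Col-0 and *TT2* OE against *MYB5* OE they were 287, 34 and 35. DESeq2 gave 442, 147 and 64, the likelihood ratio test 765, 297 and 111, and no filter on counts 442, 101 and 53. Leaving out a library gave 55 to 424, 9 to 83 and 14 to 50, and why the counts moved was not tested. With no replicate block (genotype alone in the model, no term for round) the calls were 2, 1 and 3, and 0 of the 10 genes; the replicate numbers only name samples, so no pairing by them was made. Total counts alone moved the share of calls that were higher in *MYB5* OE from 44.1% to 32.3%, and DESeq2 that in *TT2* OE against *MYB5* OE from 37.1% to 51.6%. *CBF1*, *CBF2*, *CBF3*, *COR15A*, *COR15B* and *KIN1* had under 20 reads in at least 1 library, which limits the precision of their ratios. DESeq2 gave no adjusted p for *CBF1* in round 3 against round 2.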
